A study of Rattus norvegicus with 6 samples.

Results

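Of the 25629 genes counted in the libraries, 10 encode subunits of the AMPA and NMDA type glutamate receptors and are described here across nucleus classes of the rat nucleus accumbens. They were taken by symbol, which matched 1 row each: Gria1 (ENSRNOG00000045816), Gria2 (ENSRNOG00000054204), Gria3 (ENSRNOG00000007682), Gria4 (ENSRNOG00000006957), Grin1 (ENSRNOG00000011726), Grin2a (ENSRNOG00000033942), Grin2b (ENSRNOG00000008766), Grin2c (ENSRNOG00000003280), Grin2d (ENSRNOG00000021063) and Grin3a (ENSRNOG00000005723). The tissue came from 12 adult Sprague-Dawley rats, 6 male and 6 female, aged 90 to 120 postnatal days, all of which had self-administered heroin; no animal without heroin was analysed here. After the last session each rat received saline or naloxone, an opioid receptor antagonist, and was killed 1 h later. Nuclei were isolated from frozen tissue punches and sequenced in 6 libraries, 3 saline (replicates 1 to 3) and 3 naloxone (replicates 4 to 6), each of which pooled male and female tissue, so that animals and sexes cannot be told apart within a library. Only nuclear RNA was measured, and a 3′ count does not tell splice forms or edited transcripts apart.

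AMPA receptors are tetramers of the subunits GluA1 to GluA4, encoded by Gria1 to Gria4, and carry most fast excitatory current. A receptor that contains edited GluA2 passes little calcium, and a receptor without GluA2 passes calcium and shows inward rectification. NMDA receptors need the GluN1 subunit encoded by Grin1, to which GluN2 subunits (Grin2a to Grin2d) add the glutamate site and set the kinetics and the magnesium block; GluN3A (Grin3a) lowers calcium permeability and magnesium block. Spiny projection neurons, the output cells of the accumbens, carry both receptor types at synapses from cortex, hippocampus, amygdala and thalamus. Changes in accumbens AMPA receptor makeup are a well-known feature of rodent models of drug self-administration.

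The files held 64260 barcodes, of which 61609 were kept for having 500 or more genes detected and no more than 5% of their unique molecular identifiers (UMIs) from mitochondrial genes; 58960 remained after called doublets were removed, against 44592 nuclei stated in the labels. Total UMIs per library ran from 55739350 to 76272798, and 420 barcode sequences occurred in more than 1 library, 18 to 41 per pair of libraries. Naloxone replicate 5 had the highest median mitochondrial share, 0.551%. The nuclei formed 40 clusters with the 10 subunit genes kept out of the clustering; 50890 nuclei fell in 19 classes with at least 20 nuclei in every library. Of these classes 13 were named from markers, with the suffix -like, and 6 neuron clusters that did not reach 3 markers of any class are called by their leading gene. The Drd2 spiny-like class had a summed level of 815 CPM (a gene's UMIs per 1000000 UMIs) of Drd2 spiny markers and 11 CPM of Drd1 spiny markers. A further 11 clusters with 7300 nuclei were set aside because they mixed markers of different lineages, most often of neurons with glia or vessels, with endothelial, mural and ependymal nuclei among them.

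Levels below are CPM, taken over the UMIs of all genes in a class of a library, as the mean ± SD over 6 libraries unless stated otherwise. Transcript length and capture at the 3′ end differ between genes, so each gene's levels are compared between classes and not with another gene's. The 10 genes took up 0.618% of all UMIs. For comparison, oligodendrocyte-like nuclei, with a median of 1622 UMIs, gave 72.0 ± 15.1 CPM of Gria1, 230 ± 34.7 of Gria2, 31.2 ± 8.95 of Gria3, 73.6 ± 18.4 of Gria4, 37.0 ± 12.3 of Grin1, 13.6 ± 3.53 of Grin2a, 27.9 ± 10.2 of Grin2b and 6.64 ± 1.89 of Grin3a. Free RNA can give such low counts in droplet data; its part was not measured here, and levels near these are not read as expression in any class.

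**Figure D1:**
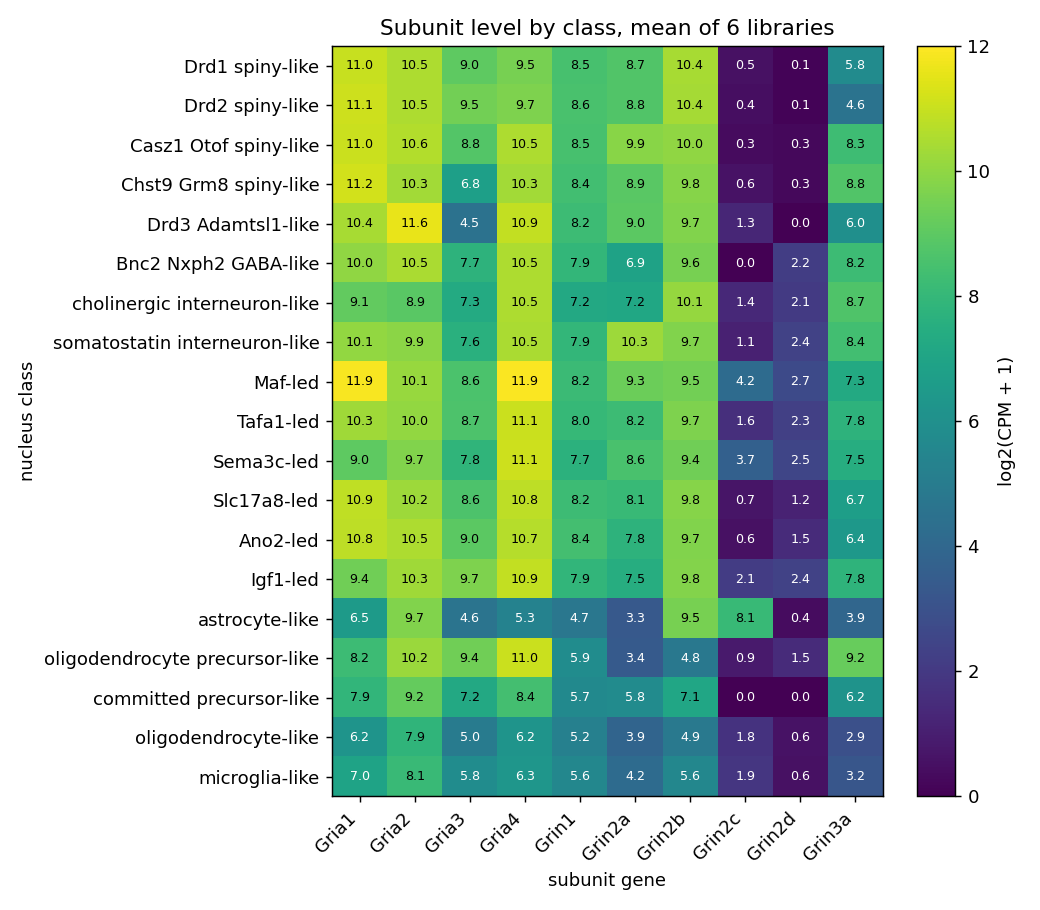
Mean level of the 10 subunit genes (columns) in 19 nucleus classes (rows), as log2(CPM + 1) averaged over 6 libraries, printed in each cell and shown by colour. Gria1 and Gria4 were highest in the Maf-led class, Gria2 in the Drd3 Adamtsl1-like class, Grin2c in astrocyte-like nuclei and Grin3a in oligodendrocyte precursor-like nuclei.

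Gria1, whose product is a main carrier of synaptic plasticity, was present in all 14 neuron classes, over a 7.29-fold range of class means. The Maf-led class, which carries Pthlh and Kit but only 2 of the 4 markers of the parvalbumin-related interneurons, gave 3768, 4101 and 3650 CPM in the saline libraries and 3689, 4090 and 3437 in the naloxone libraries, above every other class in 6 of 6 libraries. The Chst9 Grm8 spiny-like class followed at 2294 ± 123 CPM, then the Drd2 spiny-like (2149 ± 178), Casz1 Otof spiny-like (2100 ± 110) and Drd1 spiny-like (2054 ± 134) classes. The last 3 are not separated in every library: each lay above the next in 4 of 6 for the first pair and 4 of 6 for the second. At the low end of the neurons, the Sema3c-led class had 520 ± 29.8 CPM and cholinergic interneuron-like nuclei 559 ± 57.5. Among glia, oligodendrocyte precursor-like nuclei had 298 ± 39.0 CPM of Gria1, and astrocyte-like nuclei, at 91.7 ± 28.1, lay near the oligodendrocyte level.

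Gria2, which encodes the subunit that sets calcium permeability, reached its highest level in the Drd3 Adamtsl1-like class, with 2880, 2744 and 3134 CPM in saline and 3278, 3135 and 3188 in naloxone libraries. This class, led by Adamtsl1 and carrying Drd3, exceeded the next class, Casz1 Otof spiny-like (1591 ± 86.6 CPM), in 6 of 6 libraries. Its mean was 3060 CPM, against 1852 where each nucleus was assigned by its own marker score. The Drd2 spiny-like (1471 ± 40.5), Drd1 spiny-like (1456 ± 56.5) and Ano2-led (1454 ± 118) classes overlapped. Cholinergic interneuron-like nuclei had the lowest neuronal level, 484 ± 50.9 CPM. Glial nuclei also held Gria2: oligodendrocyte precursor-like nuclei had 1170 ± 30.4 CPM and astrocyte-like nuclei 837 ± 48.2, the latter with 761, 839 and 823 CPM in saline and 856, 910 and 836 in naloxone libraries, against 230 in oligodendrocyte-like nuclei.

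Gria3 had the widest range of the AMPA genes, 37.4-fold between the highest and lowest neuron class. It was highest in the Igf1-led class (809 ± 49.2 CPM) and high in Drd2 spiny-like (699 ± 25.2) and oligodendrocyte precursor-like nuclei (665 ± 45.5). In the Drd3 Adamtsl1-like class it was 15.04, 31.2 and 13.6 CPM in saline and 21.9, 31.5 and 16.6 in naloxone libraries, no higher than the 31.2 CPM of oligodendrocyte-like nuclei. The Chst9 Grm8 spiny-like class was low too, at 108 ± 18.6 CPM. The class with the highest Gria2 was thus the neuron class in which Gria3 was no higher than in oligodendrocyte-like nuclei.

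Gria4, whose product gives fast-decaying currents in many interneurons, was 4091, 4054 and 3965 CPM in saline and 3976, 3652 and 3901 in naloxone libraries of the Maf-led class, above all other classes in 6 of 6 libraries. The Sema3c-led (2187 ± 116 CPM), Tafa1-led (2121 ± 166) and oligodendrocyte precursor-like (2081 ± 27.4) classes followed and overlapped. The lowest neuronal levels were in the Drd1 spiny-like (744 ± 44.1) and Drd2 spiny-like (826 ± 39.9) classes. The Chst9 Grm8 spiny-like (1301 ± 63.6) and Casz1 Otof spiny-like (1479 ± 80.9) classes lay above both in all libraries.

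The makeup of the AMPA pool was expressed as each gene's percentage of the summed Gria1 to Gria4 UMIs of a class, a share that is compared between classes only. Gria2 made up 30.5 ± 1.12% in Drd1 spiny-like and 28.6 ± 1.03% in Drd2 spiny-like nuclei. In the Drd3 Adamtsl1-like class its share was 46.6, 50.9 and 49.5% in saline and 49.5, 46.9 and 47.6% in naloxone libraries, the highest of any neuron class. The Maf-led class had the lowest, 12.2 ± 0.62%, with Gria1 (41.0 ± 1.98%) and Gria4 (42.7 ± 1.78%) making up most of the rest. Gria4 was the largest share in the Sema3c-led class (57.9 ± 1.11%) and in cholinergic interneuron-like nuclei (54.98 ± 2.97%), against 15.6 ± 0.88% in Drd1 and 16.1 ± 0.99% in Drd2 spiny-like nuclei. The Gria3 share was 13.6 ± 0.76% in Drd2 and 10.97 ± 0.68% in Drd1 spiny-like nuclei and 0.348 ± 0.15% in the Drd3 Adamtsl1-like class.

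**Figure D2:**
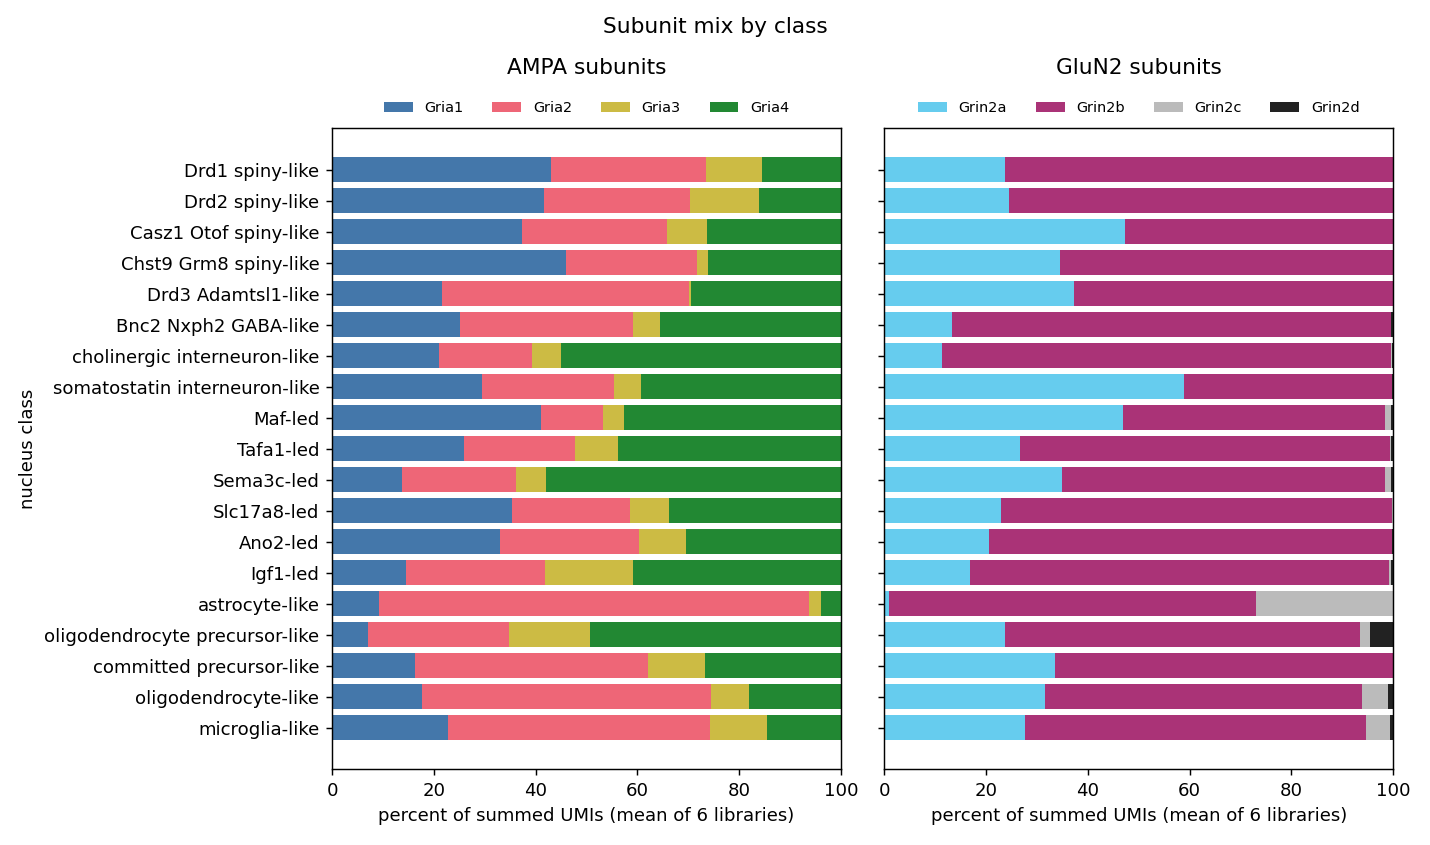
Share of each gene in the summed AMPA subunit UMIs (left) and in the summed GluN2 UMIs (right), in percent, as stacked bars of the mean over 6 libraries for each of 19 classes. The Gria2 segment spans from 12.2% in the Maf-led class to 84.6% in astrocyte-like nuclei, and the Grin2c segment is wide in astrocyte-like nuclei (26.9%). The other AMPA genes of astrocyte-like nuclei lay near or below oligodendrocyte-like levels.

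Grin1, the subunit every NMDA receptor needs, varied least among neurons apart from Grin2b, 2.49-fold between the highest and lowest class. It was 376 ± 49.7 CPM in Drd2 spiny-like, 364 ± 33.5 in Drd1 spiny-like and 363 ± 37.3 in Casz1 Otof spiny-like nuclei, 3 levels that do not differ beyond their spread. Cholinergic interneuron-like nuclei had 151 ± 31.6 CPM, below every other neuron class. The glial classes had 25.6 to 56.7 CPM, around the oligodendrocyte level of 37.0.

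Grin2b, which encodes the GluN2B subunit of slow-decaying receptors, was highest in Drd1 spiny-like nuclei, with 1344, 1375 and 1346 CPM in saline and 1385, 1308 and 1452 in naloxone libraries, followed by Drd2 spiny-like nuclei (1320 ± 36.1). The lowest neuron class, Sema3c-led, still had 684 ± 34.9 CPM. Grin2a, whose product gives faster decay, spread 10.3-fold. Somatostatin interneuron-like nuclei led with 1047, 1483 and 1438 CPM in saline and 1140, 1151 and 1118 in naloxone libraries, and the Casz1 Otof spiny-like class followed with 936 ± 62.8. Drd2 (430 ± 33.3) and Drd1 (427 ± 29.3) spiny-like nuclei overlapped in Grin2a, and the Bnc2 Nxph2 GABA-like class (119 ± 39.95) and cholinergic interneuron-like nuclei (143 ± 34.0) were lowest among neurons.

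Within the GluN2 genes, Grin2a accordingly made up 54.8, 62.0 and 64.6% of the summed Grin2a to Grin2d UMIs of somatostatin interneuron-like nuclei in saline and 57.0, 56.8 and 57.9% in naloxone libraries. It made up 47.3 ± 1.56% in the Casz1 Otof spiny-like and 46.9 ± 3.53% in the Maf-led class, 23.8 ± 1.57% in Drd1 and 24.5 ± 1.52% in Drd2 spiny-like nuclei, and 11.3 ± 2.38% in cholinergic interneuron-like nuclei, where Grin2b made up 88.3 ± 2.42%. Grin2d gave 422 UMIs in all nuclei and at most 5.54 ± 1.92 CPM, in the Maf-led class. No Grin2d UMI was seen in the Drd3 Adamtsl1-like class, where a count of 0 allows up to 0.421 CPM, nor in committed precursor-like nuclei, where it allows up to 1.497; these limits cover counting error only.

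Grin2c, a GluN2 gene with little forebrain neuronal expression, was high in astrocyte-like nuclei alone, with 278, 271 and 277 CPM in saline and 265, 280 and 254 in naloxone libraries and 3376 of its 4884 UMIs in all nuclei. The next level was 17.3 ± 3.02 CPM in the Maf-led class, and the Drd1 spiny-like class had 0.442 ± 0.27. Committed precursor-like and Bnc2 Nxph2 GABA-like nuclei gave no Grin2c UMI, which allows up to 1.497 and 1.397 CPM. Astrocyte-like nuclei also held Grin2b, at 752, 802 and 840 CPM in saline and 631, 754 and 615 in naloxone libraries, while Grin1 (25.6 ± 9.70 CPM) and Grin2a (9.19 ± 4.30) were below the oligodendrocyte-like means. Thinned to 1000 UMIs, 44.2% of astrocyte-like nuclei had a Grin2b UMI and 23.2% a Grin2c UMI, against 2.52% and 0.215% of oligodendrocyte-like nuclei. Thinning left out the nuclei under 1000 UMIs, 4.97% of the astrocyte-like and 16.2% of the oligodendrocyte-like nuclei. The unthinned shares, over all nuclei of a class, were 64.9% and 44.4% at a median of 2453 UMIs, against 3.96% and 0.390% at 1622.

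Grin3a, whose product tempers calcium entry, was highest in oligodendrocyte precursor-like nuclei, with 718, 581 and 641 CPM in saline and 580, 471 and 582 in naloxone libraries. Among neurons it was highest in the Chst9 Grm8 spiny-like class (433 ± 16.2 CPM) and in cholinergic interneuron-like nuclei (408 ± 50.3), the former above the latter in 4 of 6 libraries. Drd1 spiny-like nuclei had 54.2 ± 4.64 CPM and Drd2 spiny-like nuclei 22.5 ± 2.33, the lowest neuronal level. As a ratio to Grin1, Grin3a gave 14.98 ± 1.98 UMIs per 100 Grin1 UMIs in Drd1 spiny-like nuclei, 132 ± 11 in the Chst9 Grm8 spiny-like class and 279 ± 64 in cholinergic interneuron-like nuclei. In oligodendrocyte precursor-like nuclei, where Grin1 was 56.7 ± 7.60 CPM, the ratio was 1595, 939 and 1074 in saline and 877, 837 and 1130 in naloxone libraries. That Grin1 level was near the 37.0 CPM of oligodendrocyte-like nuclei, so this ratio is not read as a receptor makeup.

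The genes with these 3 contrasting patterns, Grin1 across neurons, Grin2c in astrocyte-like and Grin3a in precursor-like nuclei, are shown with the 300 bases around their annotated starts. The sequences are RefSeq's on GRCr8, all read on the minus strand, while the counts were made on mRatBN7.2; RefSeq windows matched 5 of the 10 genes, these 3 with Gria4 and Grin2d. Capitals mark matches on either strand to the GC box GGGCGG, to TGACG (the first bases of the cAMP response element) and to AGCACC (part of the neuron-restrictive silencer).
Grin1, chr3:28528705-28529004: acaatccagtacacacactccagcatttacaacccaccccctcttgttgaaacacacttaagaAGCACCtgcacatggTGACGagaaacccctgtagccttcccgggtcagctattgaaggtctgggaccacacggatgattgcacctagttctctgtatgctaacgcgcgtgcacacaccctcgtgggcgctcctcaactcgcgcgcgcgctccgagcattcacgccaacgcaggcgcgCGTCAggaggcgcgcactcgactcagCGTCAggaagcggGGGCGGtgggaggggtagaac
Grin2c, chr10:101005089-101005388: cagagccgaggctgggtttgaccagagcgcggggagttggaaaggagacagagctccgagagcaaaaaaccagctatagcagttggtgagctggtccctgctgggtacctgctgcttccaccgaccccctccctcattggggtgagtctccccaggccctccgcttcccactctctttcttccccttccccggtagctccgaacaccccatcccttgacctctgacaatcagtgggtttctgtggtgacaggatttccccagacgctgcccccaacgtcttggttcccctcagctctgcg
Grin3a, chr5:69001509-69001808: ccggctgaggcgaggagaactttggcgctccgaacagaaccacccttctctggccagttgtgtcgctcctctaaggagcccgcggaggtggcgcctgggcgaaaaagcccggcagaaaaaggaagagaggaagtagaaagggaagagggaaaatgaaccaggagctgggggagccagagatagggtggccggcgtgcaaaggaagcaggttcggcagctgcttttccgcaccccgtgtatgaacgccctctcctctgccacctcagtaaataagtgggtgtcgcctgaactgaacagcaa
The Grin1 window held 1 GC box, 3 TGACG and 1 AGCACC, and the Grin2c and Grin3a windows held none of these letters. No marked stretch overlapped another. Of all 33469 windows of this length, 33.1% held a GC box, 21.2% TGACG and 16.3% AGCACC. Other motifs were searched but not marked. The E box CANNTG occurred 2, 1 and 2 times in the Grin1, Grin2c and Grin3a windows, and in 72.1% of all windows. The CAAT box CCAAT occurred 1 time, in the Grin2c window, and in 37.5% of all windows. The TATA box TATAAA and the full cAMP response element TGACGTCA were absent from these windows. CG dinucleotides numbered 25, 11 and 17 in the Grin1, Grin2c and Grin3a windows, against a median of 7 over all windows. These matches are a description of the sequence and show nothing on which factors bind it.

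**Figure D3:**
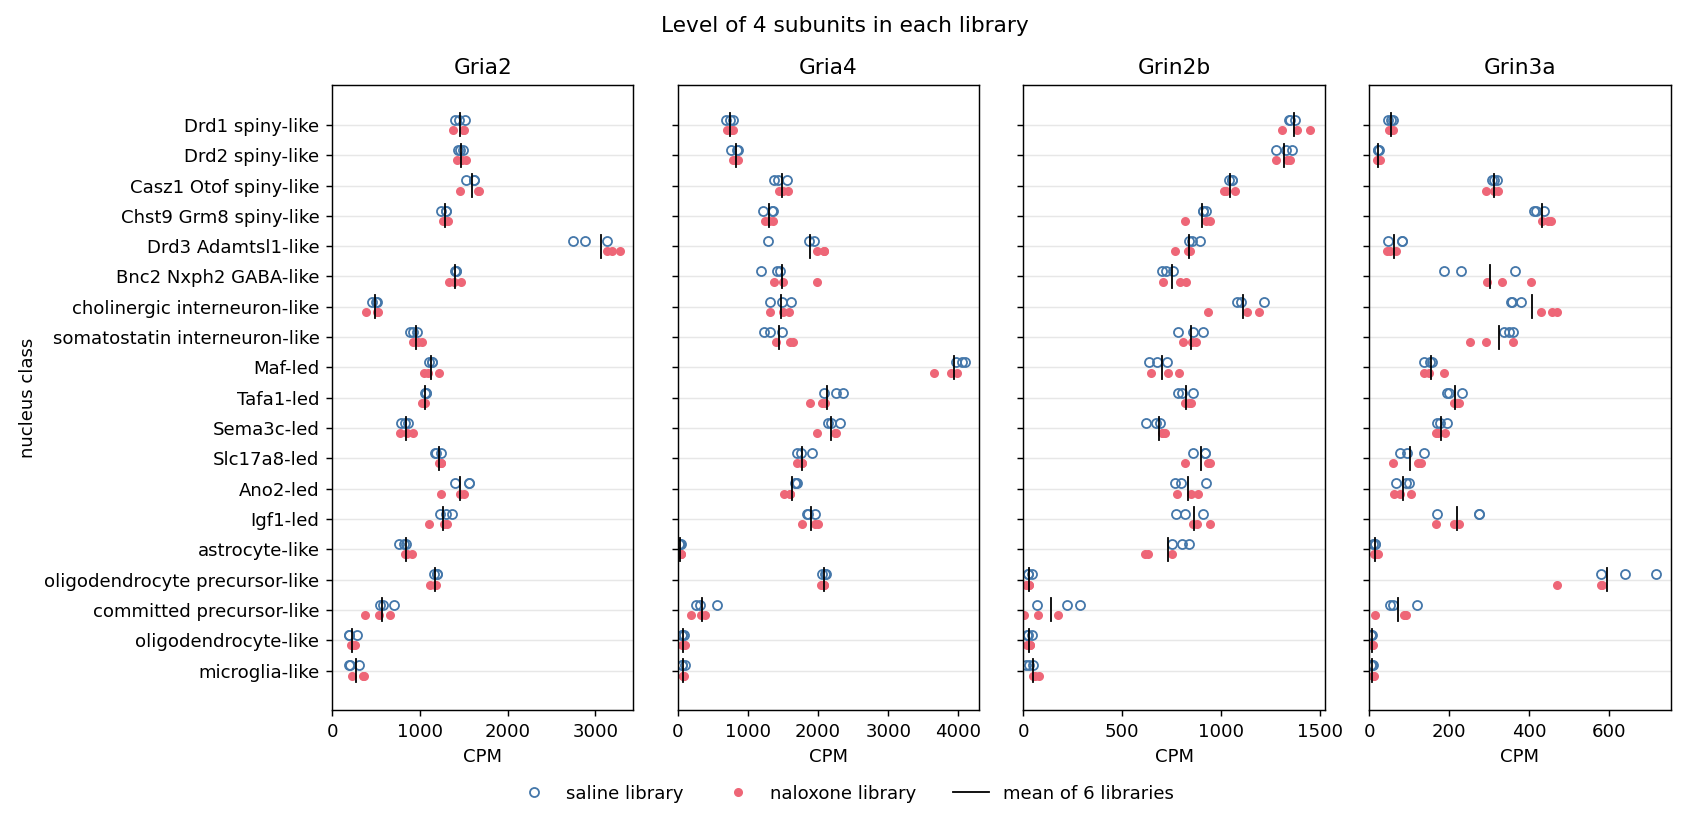
CPM of Gria2, Gria4, Grin2b and Grin3a in each of 3 saline (open circles) and 3 naloxone libraries (filled circles) for 19 classes, with the mean of 6 libraries as a vertical bar. Many neighbouring classes overlap, as the Drd1 and Drd2 spiny-like classes do for Gria2, while Gria2 in the Drd3 Adamtsl1-like class (2744 to 3278 CPM) lies apart from the next class, whose mean was 1591.

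The balance between the 2 receptor families was described by the ratio of summed Gria1 to Gria4 UMIs to summed UMIs of the 6 Grin genes. It was 2.16 ± 0.052 in Drd1 and 2.40 ± 0.052 in Drd2 spiny-like nuclei, 5.12 ± 0.37 in the Maf-led class, 1.49 ± 0.23 in cholinergic and 1.39 ± 0.13 in somatostatin interneuron-like nuclei. Among glia it was 6.16 ± 0.69 in oligodendrocyte precursor-like and 0.950 ± 0.13 in astrocyte-like nuclei. The Gria2 share of the astrocyte-like AMPA pool was 84.6 ± 3.25% and that of oligodendrocyte-like nuclei, whose AMPA sum was 407 ± 69.6 CPM, 56.8 ± 2.79%, against 28.3 ± 0.58% over all nuclei. In astrocyte-like nuclei Gria1, Gria3 and Gria4 (91.7, 23.3 and 39.2 CPM) lay near or below the oligodendrocyte-like levels. Those levels, which make up the whole oligodendrocyte-like pool, are not read as expression. The precursor-like pool held 49.4 ± 0.89% Gria4, 27.8 ± 0.53% Gria2, 15.8 ± 0.91% Gria3 and 7.07 ± 0.88% Gria1.

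Differences between classes were tested for 6 pairs with edgeR's quasi-likelihood test on UMIs summed per library and class, with the library as a block and Benjamini-Hochberg adjustment over all genes tested. Fitted log2 differences use TMM scaling, so they need not equal the ratio of CPM means. Between Drd2 and Drd1 spiny-like nuclei 4 of the 8 subunit genes tested passed an adjusted p of 0.05, against 23.1% of all genes. Gria3 was higher in Drd2 spiny-like nuclei (log2 difference 0.42, SE 0.02, adjusted p = 4.9e-12), with 709, 692 and 734 CPM in saline and 672, 671 and 717 in naloxone libraries against 539, 516 and 558, and 501, 489 and 540, in Drd1 spiny-like nuclei, so that no libraries overlapped. Grin3a was lower (-1.27, SE 0.05, adjusted p = 1.2e-13), Gria4 higher by 0.15 and Gria1 higher by 0.07. The Gria1 call was lost by DESeq2 (adjusted p = 0.135), under assignment by marker score (0.116), without the library block (0.612) and when naloxone replicate 4 (0.14) or 5 (0.117) or saline replicate 2 (0.07) or 3 (0.057) was left out. Gria2 (0.02), Grin1 (0.05), Grin2a (0.01) and Grin2b (-0.05) did not pass, with SE of 0.02 to 0.03. Grin2b was called lower among nuclei with at least 1000 genes (-0.15, adjusted p = 8.1e-06) and without a filter on low counts (-0.06, adjusted p = 0.042), and Gria2 was called higher at a Leiden resolution of 0.5 (0.06, adjusted p = 0.036). The Gria4 difference was -0.04 among nuclei with at least 1000 genes and -0.09 where each nucleus was assigned by its own marker score, and was not called in either, nor without the library block (0.15, adjusted p = 0.12); Grin2a was called higher by 0.72 under assignment by marker score (adjusted p = 3.0e-11) and by 0.11 with at least 1000 genes (adjusted p = 0.047).

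In the Chst9 Grm8 spiny-like class, which carries Oprm1 among its markers, 6 of 8 subunit genes differed from Drd1 spiny-like nuclei, against 54.3% of all genes. Grin3a was higher by 2.84 (SE 0.04, adjusted p = 1.4e-25) and Gria4 by 0.64, while Gria3 (-2.45, SE 0.06, adjusted p = 3.8e-21), Grin2b (-0.76), Gria2 (-0.34) and Grin1 (-0.30) were lower. Per library, Grin3a ran from 413 to 454 CPM against 47.7 to 58.9. Gria1 (-0.0047, SE 0.03) and Grin2a (0.0020, SE 0.04) did not pass; Grin2a was called higher by 0.34 among nuclei with at least 1000 genes, by 0.73 at a Leiden resolution of 0.5 and by 0.80 under assignment by marker score, where Gria1 was called lower (-0.12, adjusted p = 0.017).

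Cholinergic interneuron-like nuclei differed from Drd1 spiny-like nuclei in 9 of 9 subunit genes, against 48.2% of all genes. Gria1 (-2.08), Gria3 (-2.08), Gria2 (-1.79), Grin2a (-1.79), Grin1 (-1.48) and Grin2b (-0.50) were lower, and Gria4 (0.78), Grin3a (2.72) and Grin2d, which rests on 12 and 6 UMIs, were higher. Gria4 therefore went against the other AMPA genes. The Maf-led class, compared with somatostatin interneuron-like nuclei, also differed in 9 of 9 (24.5% of all genes). Gria1 (1.84), Gria4 (1.48), Gria3 (1.01), Grin1 (0.27), Gria2 (0.26) and Grin2c (3.81, on 146 and 4 UMIs) were higher, and Grin3a (-1.05), Grin2a (-0.91) and Grin2b (-0.25) lower. The Gria2 call was lost where doublets were kept (0.06, adjusted p = 0.572) and with at least 1000 genes (0.14, adjusted p = 0.107), and the Grin1 call by DESeq2 (0.27, adjusted p = 0.083) and with at least 1000 genes (0.15, adjusted p = 0.119).

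Oligodendrocyte precursor-like nuclei exceeded oligodendrocyte-like nuclei in 6 of 8 subunit genes, against 67.3% of all genes called in either direction. The differences were 6.58 for Grin3a, 4.94 for Gria4, 4.54 for Gria3, 2.46 for Gria2, 2.16 for Gria1 and 0.76 for Grin1. Grin1 was low in both classes, at 56.7 CPM in precursor-like and 37.0 in oligodendrocyte-like nuclei. Grin2a (-0.36, adjusted p = 0.18) and Grin2b (0.05, adjusted p = 0.75), the main neuronal GluN2 genes, did not pass, although Grin2b was called higher at a Leiden resolution of 0.5 (0.49, adjusted p = 0.0094). Astrocyte-like nuclei differed from oligodendrocyte-like nuclei in 8 of 9 subunit genes (69.4% of all genes): Grin2c (6.87), Grin2b (4.70), Gria2 (1.83) and Grin3a (1.13) were higher, Gria4 (-0.94), Grin2a (-0.56), Grin1 (-0.55) and Gria3 (-0.45) lower, and Gria1 (0.29, adjusted p = 0.056) did not pass. The Gria3 call was lost with at least 1000 genes (adjusted p = 0.098) and without the library block (0.07), and the Grin2a call without the block (0.077) and when naloxone replicate 4 (0.068) or 6 (0.057) or saline replicate 1 (0.071) was left out. Gria1 was called higher with at least 1000 genes (0.43, adjusted p = 0.0082), without a filter on low counts (0.28, adjusted p = 0.0036) and when saline replicate 2 (0.42, adjusted p = 0.009) or 3 (0.35, adjusted p = 0.044) was left out. All of the lower genes were at or under 73.6 CPM in both classes. Grin3a, though called higher, was low as well, at 14.4 CPM in astrocyte-like and 6.64 in oligodendrocyte-like nuclei.

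**Figure D4:**
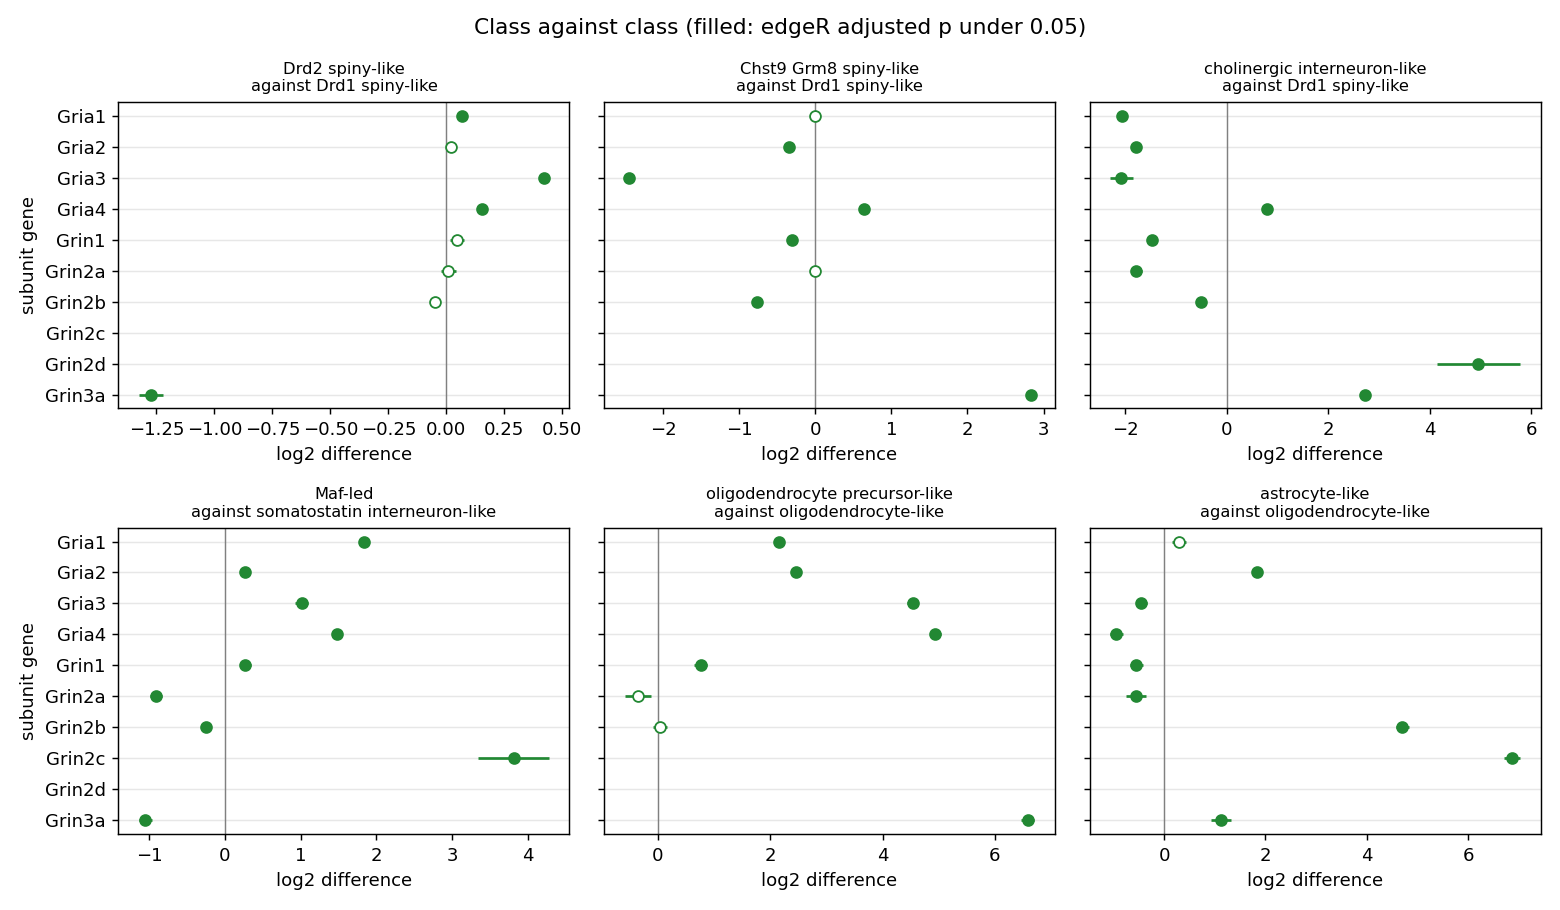
Fitted log2 difference (horizontal axis) of each subunit gene between the 2 classes of 6 pairs, with its standard error as a bar and filled circles where the edgeR adjusted p is under 0.05. Grin3a runs from -1.27 (Drd2 against Drd1 spiny-like) to 6.58 (precursor-like against oligodendrocyte-like).

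Classes were not uniform inside. Drd1 spiny-like nuclei came from 2 clusters, 1 led by Ebf1 with 2847 nuclei and the other with 4985, and since the subunit genes were kept out of the clustering their levels there are given without a test. Grin2a was 167 ± 26.8 CPM in the Ebf1-led cluster and 561 ± 29.8 in the other, lower in 6 of 6 libraries, while Gria4 was 926 ± 66.4 and 650 ± 31.0. The Drd2 spiny-like class held a cluster led by Scube1 with 514 nuclei beside 1 led by Drd2 with 4835. The Scube1-led cluster had more Grin2a (840 ± 104 against 387 ± 32.8 CPM), Gria3 (851 ± 47.9 against 683 ± 23.1) and Grin3a (116 ± 25.5 against 12.9 ± 3.57), and less Gria4 (503 ± 84.5 against 859 ± 40.9), each in 6 of 6 libraries. In both spiny-like classes the cluster with more Grin2a thus had less Gria4.

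Astrocyte-like nuclei fell into a cluster of 3474 nuclei led by Slc1a2, the main glutamate transporter, and another of 1133 led by Lama2. Grin2b was 906 ± 89.9 CPM in the first and 239 ± 36.1 in the second, and Grin2c 316 ± 14.2 and 141 ± 24.7, each higher in 6 of 6 libraries. Gria2 overlapped between them (838 ± 56.8 and 848 ± 98.1 CPM, higher in the first in 3 of 6), and Gria1 went the other way (62.0 ± 19.7 and 170 ± 46.5).

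Genes whose class means most resembled each subunit's were ranked by Pearson's r of log2(CPM + 1) over the 19 classes, among genes with at least 20 CPM in a class; all classes share the same 6 libraries, so r is a description. Grin1 was most like Camk2b (0.981) and Svop (0.979), and Gria1 most like Grin1 (0.951) and Tiam1 (0.942). Gria4 was nearest to Nalf1 (0.970) and Cadps (0.969), Grin2a to Slc35f3 (0.949) and Etl4 (0.946), and Grin2b to Fam81b (0.942) and Sptan1 (0.934). Weaker likeness was found for Gria2 (Syt12, 0.914, and Pknox2, 0.903), Gria3 (Lrp1b, 0.898, and a gene without a symbol, ENSRNOG00000070379, 0.856), Grin2c (Mical2 as ENSRNOG00000016210, 0.905, and Slc3a2, 0.883) and Grin3a (Tmem132e, 0.872, and Ankrd29, 0.867). Grin2d was most like Lypd6b (0.929) and Fgf1 (0.913) on few UMIs. Between subunits, r was 0.918 for Grin1 with Grin2a, 0.765 for Grin1 with Grin2b, 0.490 for Grin1 with Grin3a and 0.811 for Gria4 with Grin3a.

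The second question was whether naloxone moved the subunits in any class. Of 155 tests of a subunit gene in a class, none passed an adjusted p of 0.05 by edgeR's quasi-likelihood test, and none by DESeq2. The background was low as well. The share of all genes called was 0.236% in Drd1 spiny-like, 0.752% in Drd2 spiny-like, 0.112% in Casz1 Otof spiny-like and 0.0645% in Chst9 Grm8 spiny-like nuclei. It was 0% in the Drd3 Adamtsl1-like, Bnc2 Nxph2 GABA-like, cholinergic interneuron-like, somatostatin interneuron-like, Igf1-led and committed precursor-like classes. The other neuron clusters gave 0.0417% (Maf-led), 0.0663% (Tafa1-led), 0.0448% (Sema3c-led), 0.0577% (Slc17a8-led) and 0.0093% (Ano2-led). Among glia the share was 0.256% in microglia-like nuclei, 0.324% in precursor-like, 0.883% in mature oligodendrocyte-like and 0.864% in astrocyte-like nuclei, and over all nuclei together 0.0403%. In the 4 spiny-like classes the 32 fitted log2 differences lay between -0.08 and 0.27.

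The 10 tests with the smallest unadjusted p are given with their values. Grin1 in Drd2 spiny-like nuclei had 346, 350 and 335 CPM in saline and 361, 467 and 400 in naloxone libraries, which did not overlap (log2 difference 0.27, SE 0.08, adjusted p = 0.169). Gria1 in the same class had 1915, 2207 and 1965 against 2229, 2388 and 2192 CPM, with overlap (0.18, SE 0.07, adjusted p = 0.277). The Drd2 spiny-like class had the most genes called of any spiny-like class, 95 of 12631 (0.752%), and none of its 8 subunit genes tested. At so low a share, the lack of a call among 8 genes does not set the subunits apart.

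In the Drd3 Adamtsl1-like class Grin2a had 480, 427 and 432 CPM in saline and 605, 537 and 533 in naloxone libraries, without overlap (0.34, SE 0.11, adjusted p = 0.469). Grin1 had 256, 257 and 292 against 334, 376 and 303 CPM there, also without overlap (0.34, SE 0.11, adjusted p = 0.517). Gria4 had 1948, 1291 and 1866 against 1991, 2091 and 2081 CPM, without overlap, although saline replicate 2 stood far below the other libraries (0.28, SE 0.12, adjusted p = 0.645). No gene of any kind was called in this class.

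Among the interneurons, Gria3 in somatostatin interneuron-like nuclei had 222, 217 and 226 CPM in saline and 184, 185 and 134 in naloxone libraries without overlap, the only one of the 10 with lower naloxone values (-0.41, SE 0.15, adjusted p = 0.651). Grin3a in the Bnc2 Nxph2 GABA-like class had 365, 230 and 188 against 332, 294 and 404 CPM, with overlap (0.47, SE 0.19, adjusted p = 0.755); this class had 27 to 48 nuclei per library.

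The glial tests among the 10 were at low levels. Gria1 in astrocyte-like nuclei had 74.7, 88.4 and 62.5 CPM in saline and 79.4, 104 and 142 in naloxone libraries, with overlap (0.57, SE 0.18, adjusted p = 0.224), and Grin1 had 13.0, 28.0 and 16.3 against 32.5, 38.7 and 25.4 CPM, with overlap (0.72, SE 0.25, adjusted p = 0.265). The summed level of 3 general neuron markers in these nuclei was 193 to 337 CPM in saline and 291 to 450 in naloxone libraries, and its part in these values was not tested. Without a filter on low counts both genes passed (adjusted p = 0.0023 and 0.044). Removing that filter also moved the number of all genes called for naloxone in every class. The share of all genes called under it is not given here. Grin2b in microglia-like nuclei had 29.8, 49.1 and 15.4 against 77.9, 58.8 and 46.6 CPM, with overlap (1.01, SE 0.39, adjusted p = 0.4998), on 102 UMIs in all 6 libraries.

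Committed precursor-like nuclei, oligodendrocyte lineage cells on the way to myelination, had the most negative differences, down to -1.29 in Gria1, with all 8 subunit genes tested below 0 and none called. Without a filter on low counts Gria1 and Grin2b were called lower there, with the share of all genes called under that setting not given here. The summed level of the neuron markers moved the same way, 832 to 1849 CPM in saline and 381 to 1071 in naloxone libraries, and its part was not tested. In oligodendrocyte-like nuclei the cluster led by Gpd1 held 29, 74 and 89 saline nuclei and 1064, 1498 and 605 naloxone nuclei. Class values for naloxone in these nuclei thus compare different mixes of clusters. Whether the cluster holds other nuclei or the same kind in a changed state was not tested. None of 8 subunit genes was called in the oligodendrocyte-like class.

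**Figure D5:**
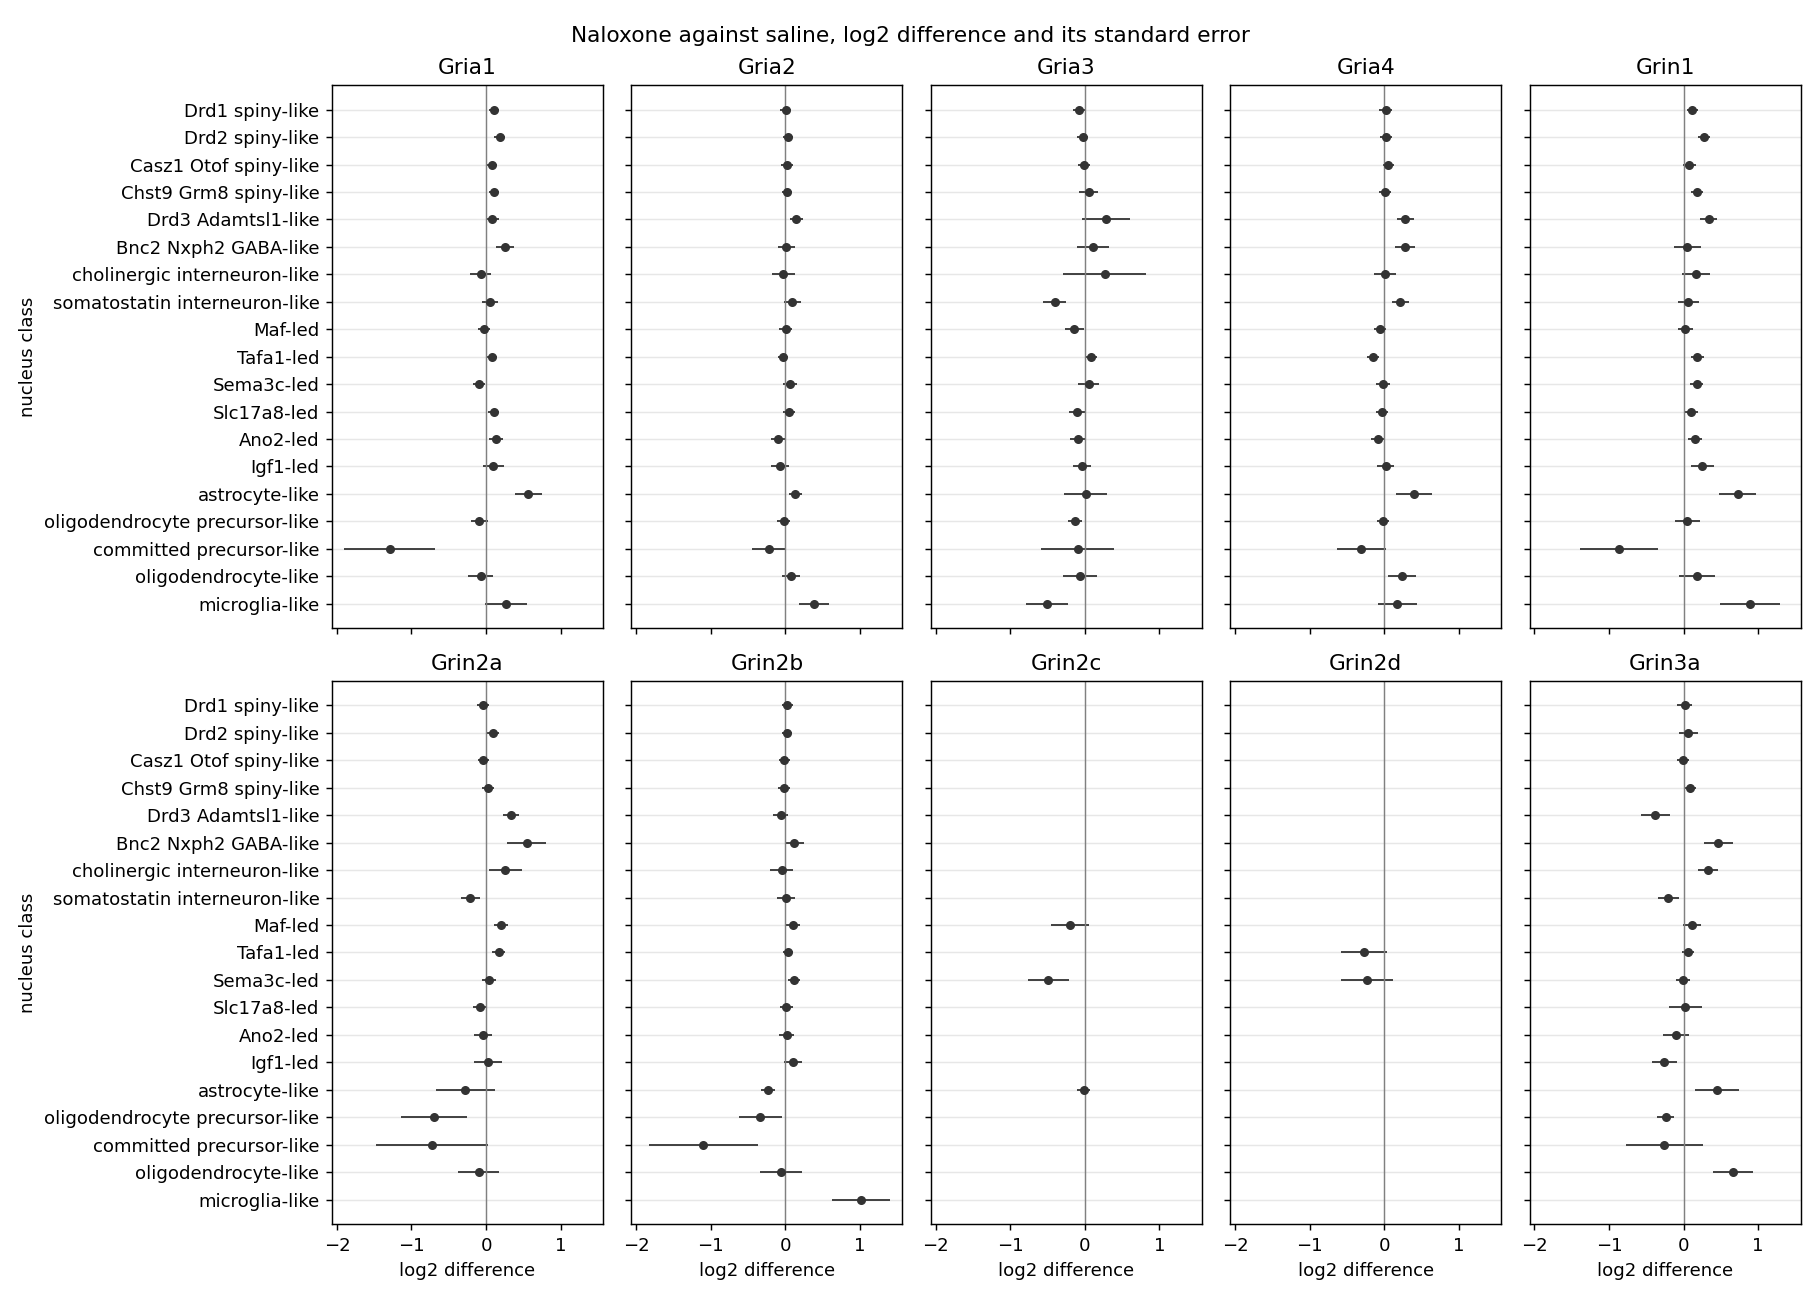
Fitted log2 difference of naloxone against saline for each of the 10 subunit genes (panels) and 19 classes (vertical axis), with the standard error as a bar; classes where a gene did not pass the filter on low counts have no point. No point passed an adjusted p of 0.05, and the widest bars are those of Grin2a and Grin2b in committed precursor-like nuclei (SE 0.76 and 0.73).

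Whether the naloxone difference itself differed between classes was tested by a class by treatment term. Between Drd2 and Drd1 spiny-like nuclei 0 of 8 subunit genes passed, against 1.33% of all genes (182 of 13666). Grin1 came nearest, with a difference of 0.15 (SE 0.05, adjusted p = 0.154); in Drd1 spiny-like nuclei it had 341, 353 and 352 CPM in saline and 355, 432 and 353 in naloxone libraries. It passed without naloxone replicate 4 (0.20, adjusted p = 0.023). Gria1 was at 0.07 (adjusted p = 0.48) and Grin2a at 0.13 (adjusted p = 0.31). Between the Chst9 Grm8 and Drd1 spiny-like classes 0 of 8 passed, against 0.0528% of all genes, with differences of -0.04 to 0.13. By the same edgeR test the unadjusted p in the first comparison was 0.0037 for Grin1, 0.013 for Grin2a and 0.046 for Gria1. The smallest in the second was 0.318, for Gria3.

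Partners of the receptors were followed in 4 lists with 45 genes: AMPA auxiliary subunits (13), genes of AMPA receptor anchoring, clustering and editing (8), postsynaptic scaffold proteins and kinases (17), and NMDA receptor regulators with Grin3b (7). Under naloxone 2 list genes were called in any class. Homer1, a scaffold gene that also gives an activity-induced short form, was 344, 318 and 359 CPM in saline and 444, 600 and 693 in naloxone libraries of Drd2 spiny-like nuclei (0.79, SE 0.13, adjusted p = 0.016), where it was the 1 called of 16 scaffold genes tested, against 0.752% of all genes. Grip1, which anchors AMPA receptors, was 132, 136 and 143 against 196, 168 and 223 CPM in astrocyte-like nuclei (0.56, adjusted p = 0.042), the 1 called of 4 anchoring genes tested, against 0.864% of all genes. Homer1 missed the threshold without any 1 of the saline libraries (adjusted p of 0.061 or more) and under assignment by marker score (0.097), and Grip1 without any 1 library other than naloxone replicate 5 (0.122 to 0.213) and under assignment by marker score (0.163).

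Between classes the auxiliary subunits, which set the trafficking and gating of AMPA receptors, were tested in the same pairs. Of 13 auxiliary genes tested, 4 were higher and 1 lower in Drd2 than in Drd1 spiny-like nuclei (23.1% of all genes called), 6 higher and 4 lower in the Chst9 Grm8 spiny-like class (54.3%), and 2 higher and 9 lower in cholinergic interneuron-like nuclei (48.2%). Cacng5, a transmembrane AMPA receptor regulatory protein gene, was higher by 2.03, 3.79 and 1.22 in these 3 comparisons. Shisa9, another AMPA receptor auxiliary gene, was lower by 3.28 on the log2 scale in cholinergic interneuron-like and higher by 5.75 in astrocyte-like nuclei, the latter against oligodendrocyte-like nuclei. In oligodendrocyte precursor-like nuclei 8 of 10 auxiliary genes tested were higher and 1 lower than in oligodendrocyte-like nuclei, against 67.3% of all genes called, led by Cacng4 (5.42).

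In cholinergic interneuron-like nuclei 3 of 16 scaffold and kinase genes were higher and 13 lower than in Drd1 spiny-like nuclei, against 48.2% of all genes called; Dlgap2 (-3.67) and Homer1 (-2.75) were among the lowest, and Homer2 (3.54) was higher. In the Chst9 Grm8 spiny-like class 3 of 16 were higher, Homer2 (3.04) among them, and 12 lower (54.3% of all genes called). In the Maf-led class 6 of 16 were higher and 1 lower than in somatostatin interneuron-like nuclei (24.5% of all genes called), and Grip1 was higher by 2.04. Ephb2 encodes a receptor kinase that binds NMDA receptors. Against Drd1 spiny-like nuclei it was higher in Chst9 Grm8 spiny-like (2.09) and cholinergic interneuron-like nuclei (2.93) and lower in Drd2 spiny-like nuclei (-0.349). Against oligodendrocyte-like nuclei Ephb2 was higher in precursor-like (6.08) and astrocyte-like nuclei (1.496). In the Maf-led class it was lower than in somatostatin interneuron-like nuclei (-0.599).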

How the data were processed

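Single-nucleus RNA was measured in 6 libraries with the Chromium GEM-X 3′ chemistry. The deposited count matrices hold UMI counts per gene and barcode, made by the authors with Cell Ranger 9.0.1 on mRatBN7.2, per the file headers and the submitters' processing notes; the annotation release and whether introns were counted are not given in the sources used here. Barcodes with 500 or more genes and no more than 5% of UMIs from mitochondrial genes were retained, doublets were called from simulated pairs within each library (2649 of 61609 nuclei, 4.30%), and 3000 variable genes without the subunits, the listed partner genes, sex-linked and mitochondrial genes gave 40 principal components, a graph of 15 neighbours and Leiden clusters at resolution 1.0 (igraph 0.11.9). Classes were named from at least 3 detected markers; Tac1, Chat, Slc18a3 and Ccdc153 were not used here, and the naming thresholds were set after seeing the data. The planned pair of Pthlh Pvalb and somatostatin interneurons was run with the Maf-led cluster in the first place.

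UMIs were summed per library and class and tested with edgeR 4.0.16 (glmQLFit, glmQLFTest, TMM, filterByExpr) over all genes, with Benjamini-Hochberg adjustment, and checked on simulated data. Libraries are the replicates; with 3 against 3 pools of rats, p-values measure the spread between pools. DESeq2 1.42.0, RLE factors, no low-count filter, leaving out each library and 4 other sets of nuclei were tried. Counts of 2 libraries of a group differed beyond sampling noise in every pair. The pairs with naloxone replicate 5 differed most (chi-square per degree of freedom of 54.4 and 44.1, against 11.5 to 17.8 in the others). Named were all 10 subunit genes by level, naloxone tests past the threshold or otherwise the 10 smallest unadjusted p under 0.05, called list genes (at most 3 per direction and comparison) and the 2 nearest genes by r. The members and lists were chosen with earlier results of these data known. Levels in CPM, shares and clusters within classes are descriptions without a test.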

Additional observations from a re-analysis of the deposited data

Results flagged for a closer look

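A class by treatment term passed an adjusted p of 0.05 (edgeR, library as a block) for 3 partner genes between Drd2 and Drd1 spiny-like nuclei, 2 of 17 scaffold and kinase genes tested and 1 of 6 NMDA receptor regulators tested, against 1.33% of all genes (182 of 13666), which means that the naloxone difference was not the same in the 2 classes; no subunit gene was among them. The Homer1 term was 0.777 on the log2 scale (SE 0.09, adjusted p = 4.0e-06): Drd2 spiny-like nuclei had 344, 318 and 359 CPM in saline and 444, 600 and 693 in naloxone libraries, and Drd1 spiny-like nuclei 333, 339 and 354 against 333, 364 and 334. The Ptpn5 term was 0.312 (SE 0.05, adjusted p = 0.00071); Ptpn5 encodes a phosphatase that acts on NMDA receptors, and had 180, 183 and 162 against 181, 205 and 204 CPM in Drd2 and 181, 181 and 164 against 151, 171 and 161 CPM in Drd1 spiny-like nuclei. The Dlgap2 term was 0.158 (adjusted p = 0.023), with 1296, 1408 and 1306 against 1416, 1523 and 1489 CPM in Drd2 and 1537, 1638 and 1474 against 1513, 1555 and 1601 CPM in Drd1 spiny-like nuclei. Leaving out each library in turn kept the Homer1 term past the threshold (0.62 to 0.93) and the Ptpn5 term (0.29 to 0.33), and the Dlgap2 term missed it without any 1 saline library or naloxone replicate 5 (adjusted p up to 0.228) and by DESeq2 (0.517). Groups of 3 libraries were not tested for outlying samples.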

How the results depend on the processing

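No paired analysis was possible because saline libraries are numbered 1 to 3 and naloxone libraries 4 to 6, so the groups share no replicate number. No subunit gene was called for naloxone in any class under any setting that gave a value, except 2 in astrocyte-like and 2 in committed precursor-like nuclei without a filter on low counts. The share of all genes called in these classes without the filter is not given here, so these calls cannot be set against a background. The count of class by treatment calls between Drd2 and Drd1 spiny-like nuclei ran from 0 to 1 when each library was left out, and that of class differences between them was 2 without the library block. Over all genes, the class differences called in that pair were 3151, against 1977 by DESeq2, 1638 with assignment by marker score and 1494 without the library block; 7201 against 3935 by marker score for the Chst9 Grm8 and Drd1 spiny-like pair; and 2370 against 1557 by DESeq2 for the Maf-led and somatostatin pair. The 182 genes with a class by treatment term were 44 by DESeq2, 105 and 92 when saline replicate 2 or 3 was left out and 90 when naloxone replicate 6 was; the 7 of the Chst9 Grm8 pair were 0 by DESeq2, 51 without a low-count filter and 0 to 19 without 1 library. Counts over all genes for naloxone were the least stable: over all nuclei 7 genes became 385 by DESeq2 and 0 to 248 without 1 library, in Drd2 spiny-like nuclei 95 became 167 by DESeq2, 487 without a low-count filter and 18 to 150 without 1 library, and in Drd1 spiny-like nuclei 32 became 99, 300 and at fewest 0. The low-count filter moved this count by over 1.5 times in every class. With assignment by marker score, Gria2 in the Drd3 Adamtsl1-like class was 1852 CPM (36.1% of AMPA UMIs) and Grin2b in Drd1 spiny-like nuclei 1296 CPM; at a resolution of 0.5 these Gria2 values were 2823 CPM and 46.0%. Among nuclei with at least 1000 genes they were 2807 CPM and 45.8%, Gria4 in the Maf-led class was 4418 CPM, its Gria2 share 10.4%, and Grin2a in somatostatin interneuron-like nuclei 1017 CPM. With doublets kept, Gria4 in the Maf-led class was 4228 CPM and its Gria2 share 10.8%. Of the class differences that changed sign, 1 had been called: Gria4 between Drd2 and Drd1 spiny-like nuclei, 0.153 as reported, was -0.04495 with at least 1000 genes and -0.0881 by marker score, uncalled in both. In the same pair Gria2 was -0.0335 and -0.0049 under these settings, Grin1 -0.011 with at least 1000 genes, Grin2b 0.0619 by marker score and 0.013 at resolution 0.5, and Grin2a -0.0014 without a low-count filter and -0.018 to 0.0364 without 1 library, including -0.012. Between the Chst9 Grm8 and Drd1 spiny-like classes Gria1 was 0.0510 with at least 1000 genes, 0.0030 with doublets kept, 0.0032 without the library block and -0.014 to 0.0034 without 1 library, and Grin2a was -0.011 by DESeq2, -0.011 with RLE factors, -0.0411 without a low-count filter and -0.0354 to 0.0351 without 1 library. Against oligodendrocyte-like nuclei, Gria1 in astrocyte-like nuclei was -0.11 by marker score, and Grin2b in precursor-like nuclei was -0.31 by marker score, -0.0024 with doublets kept, -0.011 without a low-count filter and -0.0096 to 0.065 without 1 library. The cause of these changes was not tested. Depth limits the glial and small classes most: microglia-like nuclei had a median of 1269 UMIs, and Grin2d gave 422 UMIs in all. Classes not found again in an alternative set of nuclei have no value there.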
